A study of Mus musculus with 6 samples.

Results

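Long and small noncoding RNAs that stay in the nucleus or are processed there were described in 6 RNA-seq libraries from a mouse model of medulloblastoma with active WNT signalling. The group was defined by name as 7SK, Malat1, Neat1, Rmrp, Gas5, Snhg1, Snhg3 and Snhg12, and a gene row of the count tables was taken where its name equalled one of these. Of the 8 names, 7 matched a row among 34591 gene rows. Rmrp matched none. A row named RNase_MRP, which is the name of an RNA family, is given beside the members without being counted as one. The 7SK row likewise carries a family name and not the mouse gene symbol Rn7sk. Neither labels nor headers say whether either row sums several genomic copies.

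The tumours fall into 3 libraries labelled sh2-Ift88 (written shIft88 here) and 3 control libraries. All are described as a medulloblastoma model in mouse brain. The label of the shIft88 libraries names a short hairpin RNA knock-down of Ift88, a subunit of the transport machinery that builds cilia. The strain, age, alleles, control vector and animal numbers are left unstated by the labels, so p-values measure only the spread between these libraries. The input was total RNA, which includes short and non-polyadenylated transcripts. How far the libraries kept short RNAs is not stated by the labels and was not tested. Gene counts summed to 33772559, 27267256 and 26802618 in shIft88 1, 2 and 3, and to 30965187, 27876540 and 32709246 in control 1, 2 and 3. Ift88 itself was at 14.7, 16.0 and 14.4 CPM (counts scaled to library size) in the libraries labelled shIft88, against 13.8, 19.7 and 13.7 CPM in the controls. The 2 groups overlapped for this gene, with a log2 fold change of -0.06 (95% interval -0.71 to 0.58), so Ift88 RNA did not separate the labels, and shIft88 below means the libraries labelled so.

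Several libraries stood apart in what else they held. A set of 15 gene-model rows, Gm10800 and Gm16869 among them, took 0.0275%, 6.74% and 44.8% of gene counts in shIft88 1, 2 and 3, and 0.0381%, 9.71% and 0.131% in control 1, 2 and 3. The rows were picked as at least 10-fold higher in the 3 libraries with over 100 detected olfactory receptor genes. A row had to hold at least 0.005% of gene counts in each of those libraries. They were shIft88 2 (564 such genes), shIft88 3 (387) and control 2 (492), against 24 to 38 in the others. The picked rows shrink every other row's share in shIft88 3. In that library 10.2% of tallied reads were not aligned, against 2.93% to 3.96% elsewhere. TMM scaling, which sets library sizes from the bulk of genes, gave factors of 0.598 for shIft88 3 and between 1.048 and 1.238 for the other 5 libraries. Levels are therefore given as TMM-scaled CPM unless a share is named. Summed levels of 14 mature neuron markers were 452, 202 and 34.7 CPM in shIft88 1, 2 and 3, and 55.7, 205 and 649 CPM in control 1, 2 and 3. Over 8 oligodendrocyte markers the sums were 65.9, 102 and 23.7 CPM in the shIft88 libraries and 22.5, 122 and 261 CPM in the controls. The neuron marker Gabra6 had no count in control 1, and the oligodendrocyte marker Olig1 had none in shIft88 3. Summed astrocyte markers ran from 359 to 915 CPM in shIft88 and from 335 to 861 CPM in controls, microglia markers from 19.9 to 155 and from 67.0 to 139 CPM, endothelial markers from 95.7 to 150 and from 76.7 to 167 CPM, and blood markers from 15.03 to 74.3 and from 17.4 to 115 CPM. Most of the lowest astrocyte sums was Gja1, at 273 CPM in shIft88 3 and 259 CPM in control 1. In those libraries the astrocyte marker Gfap was at 1.75 and 0.393 CPM, against 188 CPM in control 3. Targets and markers of WNT medulloblastoma summed to between 2619 and 4734 CPM in every library. The largest part was Wif1, at 1344 to 3051 CPM. Some single genes of that list differed more, such as Sp5 (2.69 to 142 CPM) and Nkd1 (263 to 875 CPM), while Lef1 and Tnfrsf19 differed less. In bulk tissue, fewer cells of a type and less RNA per cell cannot be told apart.

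7SK is a small structured RNA made by RNA polymerase III that binds Hexim proteins and holds the elongation kinase P-TEFb in an inactive particle. Malat1 is a long RNA concentrated in nuclear speckles, and Neat1 is the scaffold of paraspeckles. Rmrp is the RNA subunit of the ribonuclease MRP, which cuts ribosomal RNA precursors. Gas5, Snhg1, Snhg3 and Snhg12 are spliced host transcripts whose introns release small nucleolar RNAs (snoRNAs), the guides of ribosomal RNA modification and processing; several host transcripts carry a 5′ pyrimidine tract and are degraded by nonsense-mediated decay.

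The sequences behind 3 of the results are printed first. The opening stretch of 7SK, bases 1 to 110 of 331 on the minus strand of chromosome 9 in GENCODE M21, contains the hairpin region known to bind Hexim proteins. Capitals mark GATC, a motif that reads the same on both strands and occurs 3 times here. Among 138029 GENCODE transcripts of at least this length, 0.427% hold 3 or more copies in their opening 110 bases.
Rn7sk: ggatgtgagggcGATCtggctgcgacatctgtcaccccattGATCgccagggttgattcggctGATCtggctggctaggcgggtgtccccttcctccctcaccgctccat

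The snoRNAs Snora73b and Snora73a lie in Snhg3 introns, on the minus strand of chromosome 4, and are shown because their rows differed widely in count. Each is 205 bases long in GENCODE M21, and the 7 positions at which they differ are in capitals, for an identity of 96.6%.
Snora73b: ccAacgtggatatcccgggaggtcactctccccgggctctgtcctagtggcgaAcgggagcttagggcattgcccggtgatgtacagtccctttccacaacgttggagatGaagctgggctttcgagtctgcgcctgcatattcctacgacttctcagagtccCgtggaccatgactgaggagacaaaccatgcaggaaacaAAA
Snora73a: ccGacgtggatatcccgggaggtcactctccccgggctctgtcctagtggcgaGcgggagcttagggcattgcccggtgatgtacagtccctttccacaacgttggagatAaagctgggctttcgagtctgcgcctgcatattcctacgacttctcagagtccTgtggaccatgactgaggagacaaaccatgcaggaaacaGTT

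Promoter stretches from 70 bases before to 50 bases after the annotated start are shown for the 4 host genes, because host transcripts are known for a pyrimidine tract at their 5′ end. They come from RefSeq on build GRCm38.p6, a later build than the mm9 named by the submitters. Capitals mark the longest run of C and T, read on the gene's own strand, within 20 bases before to 50 after the start. Gas5 (chr1:161035096-161035215, plus strand) is shown at the second of 2 RefSeq starts, Snhg1 at chr19:8723417-8723536 (plus), Snhg3 at chr4:132353637-132353756 (minus) and Snhg12 at chr4:132308608-132308727 (plus).
Gas5: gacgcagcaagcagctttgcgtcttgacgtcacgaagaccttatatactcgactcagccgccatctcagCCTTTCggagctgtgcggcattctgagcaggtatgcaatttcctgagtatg
Snhg1: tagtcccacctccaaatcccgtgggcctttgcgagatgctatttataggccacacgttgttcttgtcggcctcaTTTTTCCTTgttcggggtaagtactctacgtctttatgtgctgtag
Snhg3: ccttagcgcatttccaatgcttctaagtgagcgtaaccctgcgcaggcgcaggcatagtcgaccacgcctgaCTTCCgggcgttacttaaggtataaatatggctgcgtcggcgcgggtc
Snhg12: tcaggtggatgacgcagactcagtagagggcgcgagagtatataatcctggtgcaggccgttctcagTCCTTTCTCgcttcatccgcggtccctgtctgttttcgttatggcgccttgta

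The run was 6 bases long in Gas5, starting 1 base before the annotated start, and 54.5% of 32851 promoters held a run at least as long. Runs of 9 bases were found in Snhg1 and Snhg12, a length reached in 17.2% of promoters. The run of 5 bases in Snhg3 was matched in 75.9%. At the other Gas5 start the longest run was 3 bases, which 98.6% of promoters reach, and in Malat1 it was 4 bases, reached by 91.9%. Runs of these lengths anywhere in that window were therefore held by at least 17.2% of promoters. The share of promoters with such a run at the start itself was not computed. Of the 7 members, 5 matched an entry of the promoter table, and Neat1 and 7SK are named only.

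Across all genes, edgeR's quasi-likelihood test called none of 16768 tested genes in either direction at an adjusted p of 0.05 (0% higher and 0% lower in shIft88). At an unadjusted p under 0.05 it gave 330 genes higher and 211 lower, 541 genes or 3.23% of those tested. DESeq2 called 45 higher and 13 lower, and limma-voom none. No member was called by edgeR or under any alternative run, and every member had an adjusted p of 0.9995 in edgeR's quasi-likelihood test. All 7 members were tested, and all 7 had a positive log2 fold change, with a median of 0.32. Among all tested genes 8165 were positive and 8603 negative, with a median of -0.01. With library totals alone, which moved the median of all genes to -0.33, 4 of the 7 members turned negative, so the shared sign depends on the scaling.

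Only 7SK, of the 7 members, had every shIft88 library above every control library in TMM-scaled CPM. Such a pattern was met by 788 of 16768 genes (4.70%) in this direction and by 618 (3.69%) in the other. The 1 of 7 is set beside that background without a test.

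7SK was among the most abundant rows in every library. It took 6.31%, 4.29% and 2.90% of gene counts in shIft88 1, 2 and 3, and 3.92%, 3.87% and 4.04% in control 1, 2 and 3. The controls were nearly level, while the shIft88 libraries lay on both sides of them. Its rank among gene rows was 1, 1 and 5 in the shIft88 libraries and 1, 2 and 1 in the controls. The mean share was 4.50% ± 1.72 in shIft88 and 3.94% ± 0.0909 in controls (SD, n = 3 each), a difference smaller than the shIft88 spread. On this scale no member had every shIft88 library above every control, as 180 of 16768 genes (1.07%) did. By mean share over all 6 libraries 7SK was second at 4.22%, after Gm10800 (4.60%, range 0.00456% to 20.3%) and ahead of Gm16869 (3.05%), AC157822.1 (2.77%) and AC099934.1 (2.64%).

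The order of the 7SK libraries changed with the denominator. Without the 15 rows named above, 7SK took 6.31%, 4.60% and 5.25% in shIft88 1, 2 and 3, and 3.92%, 4.28% and 4.05% in the controls. All 3 shIft88 libraries were then above all 3 controls, at a mean of 5.39% ± 0.865 against 4.08% ± 0.185 (SD, n = 3 each), as 546 of 16753 genes (3.26%) were on that scale. As a share of all tallied reads, unassigned ones included, the values were 4.53%, 2.38% and 1.55% in shIft88 and 3.01%, 2.32% and 2.85% in controls, and the groups overlapped. On that scale reads without a feature made up 23.3%, 39.5% and 31.9% in shIft88 1, 2 and 3, and 18.8%, 35.0% and 25.6% in control 1, 2 and 3. The part of these reads in the result was not tested.

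In TMM-scaled CPM 7SK was at 60233, 39262 and 48449 in shIft88 1, 2 and 3, and at 36671, 34997 and 32640 in control 1, 2 and 3. The groups did not overlap, and shIft88 1 was the highest. The log2 fold change was 0.50 (SE 0.34, 95% interval -0.30 to 1.31; edgeR adjusted p = 0.9995). Without shIft88 1 it was 0.32, and with library totals alone 0.19.

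**Figure D1:**
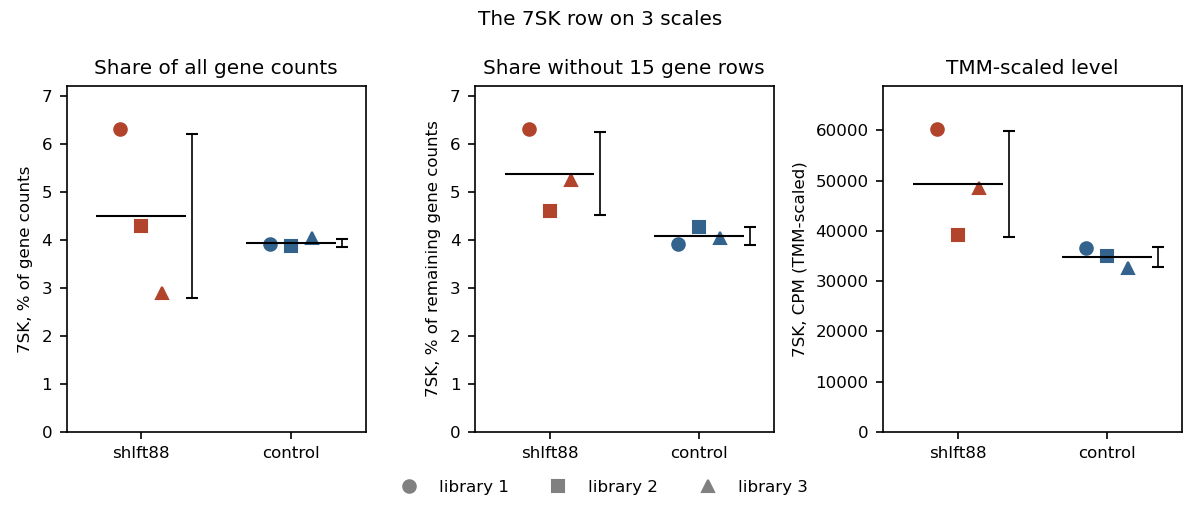
The 7SK row in 3 shIft88 and 3 control libraries as a share of all gene counts (left), as a share of gene counts without 15 gene-model rows (middle) and as TMM-scaled CPM (right); marker shape gives the library number, horizontal lines the group means and bars 1 SD. The third shIft88 library lies below the controls at 2.90% on the left and above them at 5.25% in the middle.

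Malat1 was the second most abundant member, with 0.384%, 0.479% and 0.116% of gene counts in shIft88 1, 2 and 3, and 0.219%, 0.288% and 0.146% in control 1, 2 and 3. Its rank among gene rows was 9, 11 and 31 in shIft88 and 14, 13 and 31 in controls. In TMM-scaled CPM it was at 3668, 4381 and 1932 in the shIft88 libraries and at 2048, 2612 and 1176 in the controls. shIft88 1 and 2 were above every control, and shIft88 3 was below 2 of them. The log2 fold change was 0.77 (SE 0.45, 95% interval -0.29 to 1.84; edgeR adjusted p = 0.9995). It was 0.51 without control 3, the library with the lowest level, and 0.58 with library totals alone.

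Neat1 had the widest spread of the members. Its TMM-scaled CPM was 342, 690 and 158 in shIft88 1, 2 and 3, and 305, 314 and 98.5 in control 1, 2 and 3. The highest and lowest of the 6 libraries differed 7.01-fold, against 3.73-fold for Malat1 and 1.85-fold for 7SK. The log2 fold change was 0.73 (SE 0.63, 95% interval -0.75 to 2.21; edgeR adjusted p = 0.9995). That value rested on 1 library, since it was 0.06 without shIft88 2, and it was 1.09 without shIft88 3.

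Malat1 and Neat1 ranked the 6 libraries in the same order, with shIft88 2 highest and control 3 lowest. Over 6 libraries of both groups, log2 levels gave a Pearson r of 0.932 (exact permutation p = 0.00972, adjusted p = 0.204 over 21 member pairs) and a Spearman rho of 1 (exact permutation p = 0.00278, adjusted p = 0.0583). Neither passed the adjustment. Leaving out control 3 and shIft88 2, the 2 libraries farthest from the median, r was 0.678. Within 1 group there are 3 libraries, too few for a correlation of its own. The count ratio of Malat1 to Neat1, which no scaling touches, was 10.7, 6.35 and 12.2 in shIft88 and 6.72, 8.33 and 11.9 in controls. The ratio varied 1.92-fold over the libraries, with overlapping groups. Control 3, lowest for both RNAs, had the highest neuron and oligodendrocyte marker sums. In contrast shIft88 3, next lowest for both RNAs, had the lowest neuron sum (34.7 CPM) and an oligodendrocyte sum of 23.7 CPM. The part of those cells in the result was not tested.

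**Figure D2:**
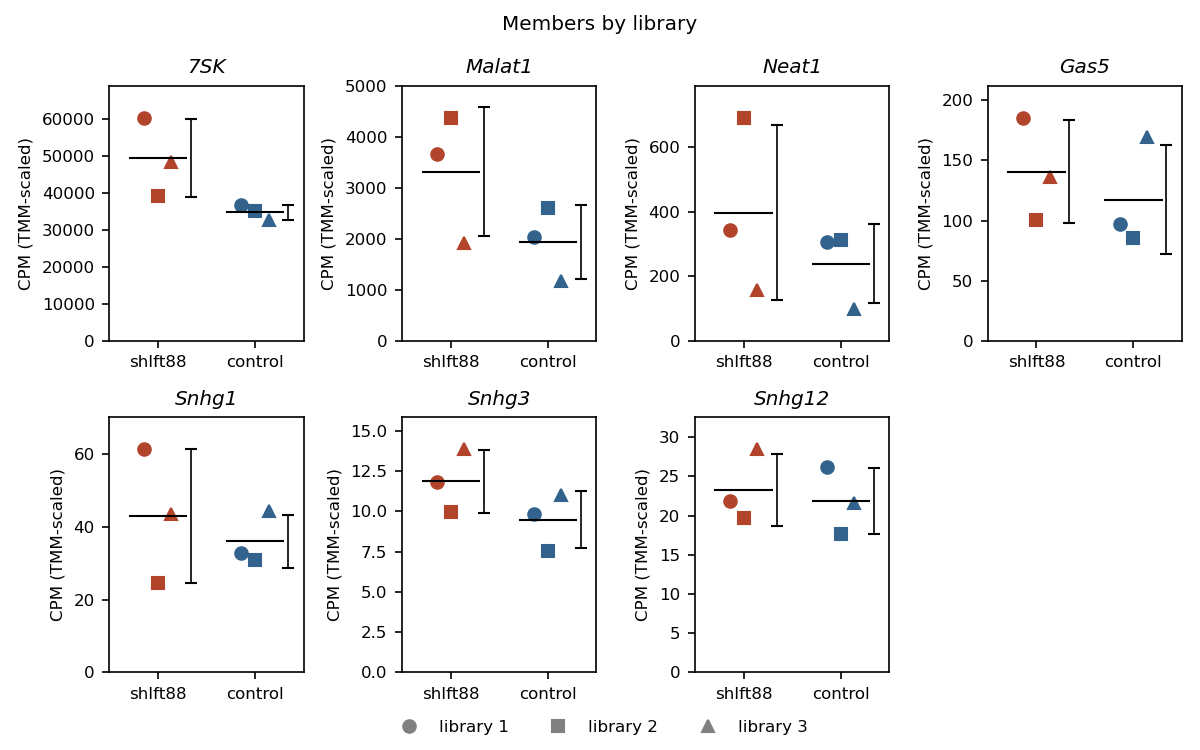
TMM-scaled CPM of each of the 7 members in 3 shIft88 and 3 control libraries, with a separate axis from 0 in each panel; marker shape gives the library number, horizontal lines the group means and bars 1 SD. Only 7SK has no overlap between the groups, and Neat1 has 1 shIft88 library at 690 CPM far above the rest.

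The 4 snoRNA hosts were far less abundant, and their groups overlapped throughout. Gas5 was at 185, 100 and 136 CPM in shIft88 1, 2 and 3, and at 97.1, 85.5 and 170 CPM in control 1, 2 and 3. shIft88 1 and control 3 were the highest, so each group held a high library. The log2 fold change was 0.26 (SE 0.36, 95% interval -0.57 to 1.09). It was -0.083 with library totals alone and ranged between -0.016 without shIft88 1 and 0.62 without control 3.

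Snhg1 was at 61.3, 24.4 and 43.4 CPM in the shIft88 libraries and at 32.7, 30.9 and 44.3 CPM in the controls. The shIft88 libraries included both the highest and the lowest value. Its log2 fold change was 0.26 (SE 0.36, 95% interval -0.59 to 1.10), and -0.11 without shIft88 1. Snhg3 was at 11.8, 9.93 and 13.8 CPM in shIft88 and at 9.86, 7.54 and 11.0 CPM in controls. Of its shIft88 libraries, 2 were above every control, and the log2 fold change was 0.32 (SE 0.32, 95% interval -0.42 to 1.07), and 0.16 without shIft88 3. Snhg12 was at 21.8, 19.6 and 28.4 CPM in shIft88 and at 26.2, 17.7 and 21.6 CPM in controls, the narrowest spread of the members at 1.61-fold. Its log2 fold change was 0.09 (SE 0.27, 95% interval -0.54 to 0.73), and edgeR gave all 4 hosts an adjusted p of 0.9995. As shares of gene counts the 4 hosts had lower means in shIft88 than in controls, for Gas5, Snhg1 and Snhg3 by less than the SD of either group and for Snhg12 by less than that of the controls. Gas5 took 0.0128% ± 0.00587 in shIft88 and 0.0136% ± 0.00643 in controls, and Snhg1 0.00390% ± 0.00219 and 0.00413% ± 0.00118. Snhg3 took 0.00105% ± 0.000207 in shIft88 and 0.00108% ± 0.000267 in controls, and Snhg12 0.00205% ± 0.000306 and 0.00248% ± 0.000454 (SD, n = 3 each).

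Counting precision differed among the members. The widest exact 95% binomial interval of a share reached 0.219% of that share to either side for 7SK and 1.12% for Malat1. It reached 14.1% for Snhg3, whose counts were 418, 296 and 222 in shIft88 and 326, 232 and 446 in controls, and 9.61% for Snhg12. These intervals cover counting error only. For each of these RNAs the range of shares within each group was wider than any counting interval of that group. The shIft88 SD of Snhg3 and of Snhg12 was narrower than the full counting intervals.

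Gas5 levels were compared with those of the other hosts over the 6 libraries. With Snhg1, Pearson r was 0.884 (exact permutation p = 0.0278, adjusted p = 0.292 over 21 pairs) and Spearman rho 0.829 (exact permutation p = 0.0583, adjusted p = 0.408). Without control 3 and shIft88 1, r was 0.700. With Snhg3, r was 0.728 (exact permutation p = 0.0931, adjusted p = 0.488) and rho again 0.829, and r was 0.981 without the same 2 libraries. Gas5 counts were 3.03, 4.103 and 3.14 times those of Snhg1 in shIft88 1, 2 and 3, and 2.97, 2.77 and 3.83 times in the controls. The hosts did not all follow the same order: Snhg3 and Snhg12 gave r = 0.759 (exact permutation p = 0.0792, rho 0.657, p = 0.175; adjusted p = 0.488 and 0.587), which was -0.214 without control 2 and shIft88 3 and so rests on them.

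**Figure D3:**
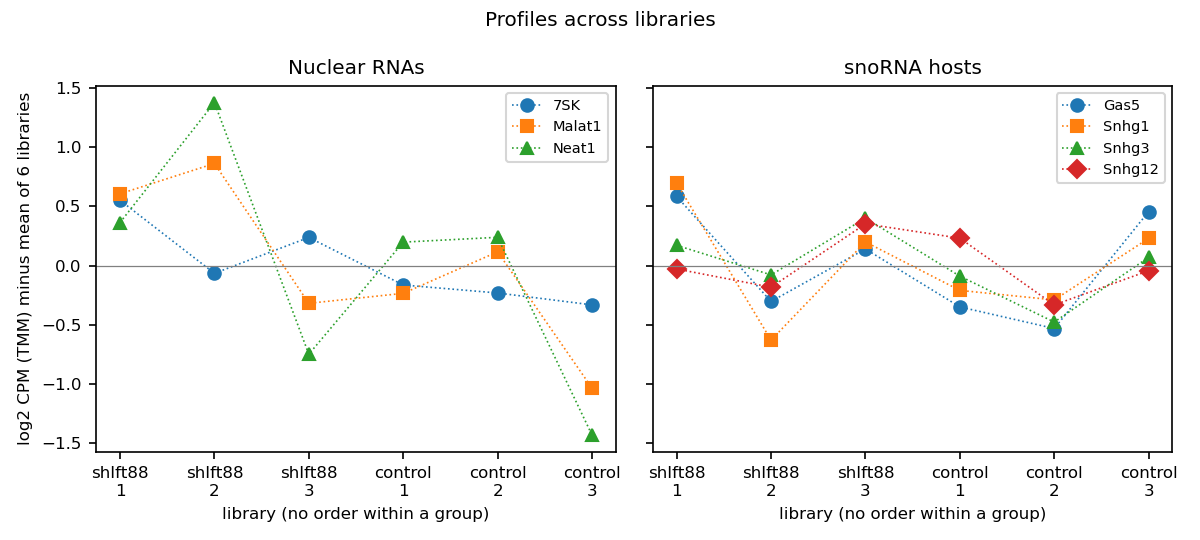
Profiles of the nuclear RNAs (left) and the snoRNA hosts (right) across 3 shIft88 and 3 control libraries, as log2 TMM-scaled CPM minus the mean of 6 libraries; dotted lines only join the points of a gene, and libraries of a group have no order. Malat1 and Neat1 share the highest library (shIft88 2) and the lowest (control 3), and Gas5 and Snhg1 share the highest (shIft88 1).

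The snoRNAs read out beside their hosts showed no common scale. Snora73b, a box H/ACA snoRNA of Snhg3 needed for early ribosomal RNA cleavage, was at 770, 361 and 410 CPM in shIft88 1, 2 and 3, and at 375, 215 and 148 CPM in control 1, 2 and 3. The groups overlapped by 1 library. Its log2 fold change was 1.06 (SE 0.45, 95% interval -0.003 to 2.12; edgeR adjusted p = 0.9995), and it was 0.63 without shIft88 1. The ratio of Snora73b to Snhg3 counts was 65.2, 36.3 and 29.6 in shIft88 and 38.0, 28.5 and 13.5 in controls, a 4.84-fold range with overlapping groups (exact permutation p = 0.4, adjusted p = 0.562 over 9 ratios). Snora73b had 27240, 10743 and 6565 counts in shIft88 and 12400, 6620 and 6005 in controls. The near-identical Snora73a had 3, 2 and 3 counts in shIft88 and 8, 4 and 9 in controls. A further row, named SNORA73, had 4239, 2277 and 1170 counts in shIft88 and 2466, 1136 and 1822 in controls. Neither labels nor headers say how reads fitting several of these rows were assigned, so the split between them is uncertain.

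Other snoRNA rows of these hosts were sparse. Snora16a, of Snhg12, had 58, 42 and 17 counts in shIft88 and 73, 29 and 66 in controls. Snord47 of Gas5, Snord22 of Snhg1, and Snora44, Snora61 and Snord99 of Snhg12 had 0 counts in all 6 libraries. A count of 0 allows up to 3 counts, which is at most 1.12e-05% of the smallest library. That bound covers counting error only. It does not limit the level of an RNA that the library preparation or the counting left out, which was not tested. Only 2 of 11 names listed for Gas5 and 1 of 8 listed for Snhg1 had a row. Snord49b, the other row listed for Gas5, lies on another chromosome in GENCODE and is left out.

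Levels were set in order per kilobase of the longest GENCODE M21 transcript not annotated as a retained intron. Median TMM-scaled CPM per kilobase was 114702 for 7SK, 334 for Malat1, 178 for Gas5, 53.7 for Snhg1, 18.0 for Snhg3, 14.9 for Neat1 and 14.1 for Snhg12. 7SK lay above Malat1, Gas5 above Snhg1, and Snhg1 above Snhg3 in all 6 libraries, with ranges that did not overlap. Malat1 exceeded Gas5 in 5 libraries, Snhg3 exceeded Neat1 in 4, and Neat1 exceeded Snhg12 in 3, all with overlapping ranges. The place of Neat1 depends on its length of 20771 bases in that annotation, and a shorter isoform would give a higher level per kilobase. For 7SK the length is the 331 bases of the single gene Rn7sk, while its row may sum several copies. The annotation behind the counts is not named, so its lengths may differ.

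The RNase_MRP row was at 10907, 6752 and 7929 CPM in shIft88 1, 2 and 3, and at 8511, 8725 and 8958 CPM in control 1, 2 and 3. The shIft88 libraries lay on both sides of the narrow controls. Its log2 fold change was -0.03 (SE 0.34, 95% interval -0.83 to 0.76; edgeR adjusted p = 0.9995). The related RNaseP_nuc row, whose name is that of the nuclear tRNA-processing RNase P RNA family, was at 1440, 947 and 1038 CPM in shIft88 and at 886, 920 and 1007 CPM in controls, with a log2 fold change of 0.28 (SE 0.30).

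Ratios between these small RNAs within a library do not depend on library scaling. The 9 ratios computed were chosen after values had been seen. 7SK counts were 5.52, 5.81 and 6.11 times those of RNase_MRP in shIft88 1, 2 and 3, and 4.31, 4.01 and 3.64 times in control 1, 2 and 3. The groups did not overlap, with means of 5.82 ± 0.294 and 3.99 ± 0.333 (SD, n = 3 each; exact two-sided permutation p = 0.1, the smallest that 3 against 3 allows, adjusted p = 0.3). Of 16767 other genes, 792 (4.72%) were likewise higher without overlap relative to RNase_MRP, and 286 (1.71%) lower. RNase_MRP to RNaseP_nuc was 7.57, 7.13 and 7.64 in shIft88 and 9.61, 9.48 and 8.89 in controls, lower in all 3 shIft88 libraries (exact permutation p = 0.1, adjusted p = 0.3). Read the other way round, RNaseP_nuc was among the 792 genes higher relative to RNase_MRP, as 7SK was. 7SK to RNaseP_nuc was 41.8, 41.5 and 46.7 in shIft88 and 41.4, 38.0 and 32.4 in controls, groups that only just failed to meet (exact permutation p = 0.1, adjusted p = 0.3). The share of all genes without overlap relative to RNaseP_nuc was not computed. 7SK to U1, the spliceosomal RNA that recognises 5′ splice sites, was 25.7, 21.8 and 20.4 in shIft88 and 25.8, 24.1 and 40.8 in controls, with overlap (exact permutation p = 0.2, adjusted p = 0.45).

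**Figure D4:**
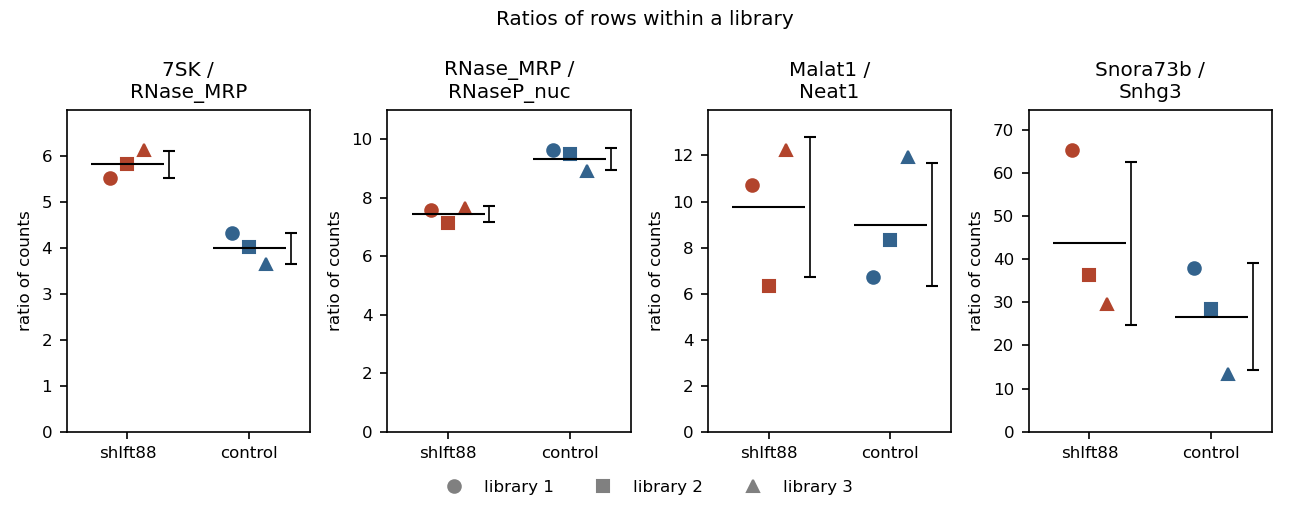
Count ratios of pairs of rows within each of 3 shIft88 and 3 control libraries, each panel with its own axis from 0; marker shape gives the library number, horizontal lines the group means and bars 1 SD. The ratio of 7SK to RNase_MRP lies between 5.52 and 6.11 in shIft88 and between 3.64 and 4.31 in controls, while Malat1 to Neat1 and Snora73b to Snhg3 overlap.

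Together the 7 members took 6.76%, 4.86% and 3.04% of gene counts in shIft88 1, 2 and 3, and 4.18%, 4.20% and 4.23% in control 1, 2 and 3. The mean was 4.89% ± 1.86 in shIft88 and 4.21% ± 0.0230 in controls (SD, n = 3 each). Most of the sum was 7SK. Without it the members took 0.450%, 0.571% and 0.138% in shIft88 and 0.269%, 0.339% and 0.188% in controls. Without the 15 gene-model rows in the denominator the sums were 6.76%, 5.21% and 5.50% in shIft88 and 4.19%, 4.66% and 4.24% in controls.

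Other small structured RNAs were set beside 7SK: 24 of 49 listed names had a row, and 20 were tested. None was called, 17 were positive and 3 negative, and the median log2 fold change was 0.63. With library totals alone 14 were positive and 6 negative, at a median of 0.26. The 3 most abundant were U1, the spliceosomal U2 that pairs with the branch point, and U3, which guides ribosomal RNA cleavage. U1 was at 2341, 1799 and 2380 CPM in shIft88 and at 1420, 1453 and 801 CPM in controls (log2 fold change 0.83, SE 0.35, edgeR adjusted p = 0.9995). U2 was at 2156, 1461 and 2028 CPM in shIft88 and at 936, 1319 and 1106 CPM in controls (0.75, SE 0.32, edgeR adjusted p = 0.9995). U3 was at 1432, 559 and 875 CPM in shIft88 and at 689, 464 and 795 CPM in controls, which overlap (0.56, SE 0.42; 0.12 without shIft88 1). The U1 and U2 groups did not overlap. Neither did those of U4, U12 and Scarna6, all higher in shIft88, which makes 5 of 20 (named after their values were seen), against the 4.70% of all genes. Like 7SK, the rows U1, U2, U3, U4 and U12 carry family names, while Scarna6 is a gene symbol. Reads shared by copies are uncertain.

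**Figure D5:**
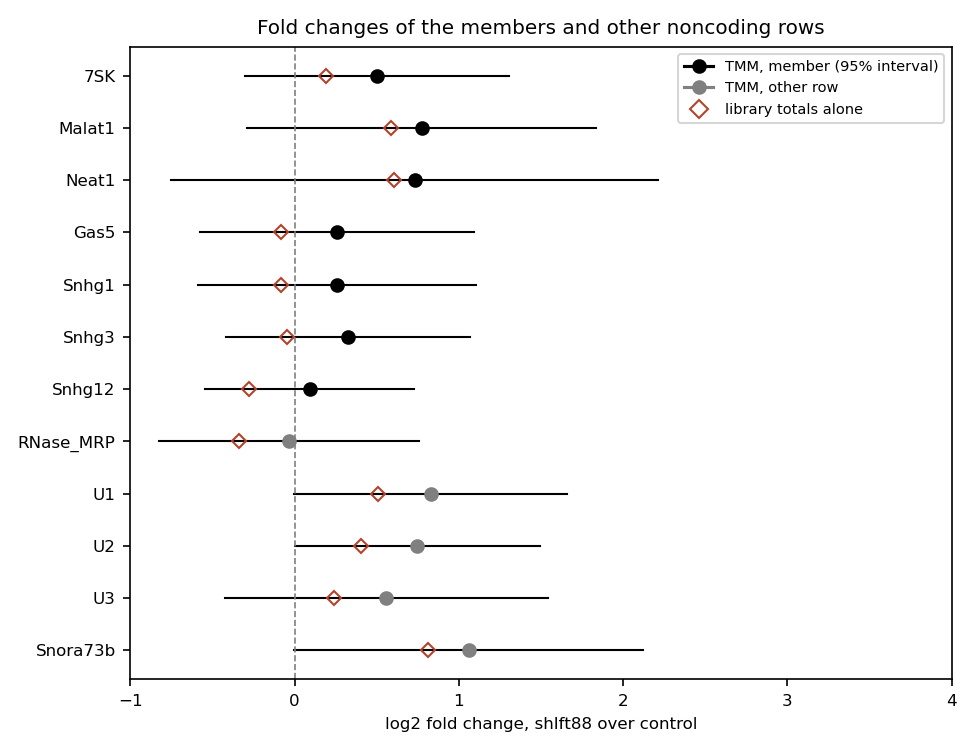
Log2 fold change of shIft88 over control for the 7 members (black points) and 5 other noncoding rows (grey points) with TMM scaling, with 95% intervals as lines, and with library totals alone (open diamonds). With TMM scaling the 7 members lie between 0.09 and 0.77, and with library totals the 4 snoRNA hosts lie below 0.

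Other snoRNA hosts, listed together with further noncoding transcripts that may carry a 5′ pyrimidine tract, gave no common direction: 8 of 20 listed were present and tested, 4 positive and 4 negative (2 and 6 with library totals alone), with none called and a median log2 fold change of -0.16. Taf1d, which also encodes a polymerase I transcription factor subunit, was at 81.8, 41.4 and 56.1 CPM in shIft88 and at 47.1, 38.1 and 76.7 CPM in controls. Snhg5 was at 74.2, 26.1 and 38.1 CPM in shIft88 and at 31.0, 30.0 and 39.9 CPM in controls. Snhg11 was at 24.1, 9.06 and 2.68 CPM in shIft88 and at 0.635, 17.4 and 52.7 CPM in controls. Within each group Snhg11 ordered the libraries as the summed neuron markers did, and the part of those cells was not tested. Of these 8 rows only Mir17hg, which hosts microRNAs and was named after its values were seen, was lower without overlap. Such a pattern held for 3.69% of all tested genes.

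Other long noncoding RNAs were tested for 12 of 22 names, with 5 positive and 7 negative (3 and 9 with library totals alone), none called and a median of -0.18. Tug1 was at 123, 216 and 216 CPM in shIft88 and at 209, 213 and 173 CPM in controls, with overlap. 1700020I14Rik was at 103, 170 and 181 CPM in shIft88 and at 244, 193 and 196 CPM in controls, lower without overlap (log2 fold change -0.48, SE 0.29, edgeR adjusted p = 0.9995). No other of the 12 rows had groups without overlap, and 3.69% of all tested genes were lower in this way. H19, an imprinted RNA, was at 4.38, 261 and 5.74 CPM in shIft88 and at 14.9, 16.1 and 121 CPM in controls, so that 1 library of each group was far above the others.

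Protein partners of 7SK showed no shared direction. Of 12 genes of the 7SK particle and P-TEFb, none was called, 5 were positive and 7 negative (1 and 11 with library totals alone), and the median log2 fold change was -0.06. Larp7, which binds and stabilises the 3′ end of 7SK, was at 124, 33.1 and 69.9 CPM in shIft88 and at 31.6, 39.9 and 44.4 CPM in controls. Of the shIft88 libraries, 2 were above every control and 1 lay among them (log2 fold change 0.97, SE 0.46, edgeR adjusted p = 0.9995). The value was 0.39 without shIft88 1 and 0.65 with library totals alone. Srsf2, a splicing factor that binds 7SK, was at 171, 138 and 214 CPM in shIft88 and at 216, 205 and 247 CPM in controls. Aff1, a scaffold of the super elongation complex, was at 53.1, 51.9 and 52.2 CPM in shIft88 and at 41.0, 47.7 and 45.7 CPM in controls. The Aff1 groups did not overlap, with a log2 fold change of 0.23 (SE 0.20) that was -0.092 with library totals alone. No other of the 12 genes had groups without overlap, and 4.70% of all tested genes were higher in this way.

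Among 9 tested protein subunits of RNase MRP and RNase P, 2 were positive and 7 negative (0 and 9 with library totals alone), with none called and a median of -0.30. Rpp14 was at 20.8, 25.5 and 20.8 CPM in shIft88 and at 32.1, 27.6 and 35.4 CPM in controls (-0.50, SE 0.23). Rpp40 was at 5.40, 4.36 and 7.74 CPM in shIft88 and at 7.99, 9.22 and 13.9 CPM in controls (-0.83, SE 0.40). Both, named for their small p, were lower in shIft88 without overlap, as were 3.69% of all tested genes; no other of the 9 was. Pop1, the largest protein subunit, was at 20.1, 17.5 and 19.5 CPM in shIft88 and at 18.4, 23.5 and 76.6 CPM in controls, where control 3 alone was high. Its log2 fold change was -1.05, and -0.14 without control 3.

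Paraspeckle proteins, the partners of Neat1, were positive for 12 and negative for 6 of 18 tested genes (3 and 15 with library totals alone), with none called and a median of 0.13. The RNA-binding protein Hnrnpa1 averaged 218 ± 102 CPM in shIft88 and 120 ± 19.7 CPM in controls (SD, n = 3 each; log2 fold change 0.86, SE 0.38). Hnrnph3 averaged 13.8 ± 4.98 CPM in shIft88 and 8.58 ± 3.33 CPM in controls. Nudt21, a cleavage factor subunit that sets poly(A) site choice, averaged 55.0 ± 16.3 CPM in shIft88 and 44.6 ± 9.45 CPM in controls. Nuclear speckle proteins, among which Malat1 resides, were positive for 2 and negative for 16 of 18 (1 and 17 with library totals alone), with none called and a median of -0.10. Srsf7 averaged 103 ± 31.2 CPM in shIft88 and 138 ± 6.01 CPM in controls, and Srsf1 331 ± 95.3 and 434 ± 9.70 CPM; both are SR splicing factors. Srrm1, a splicing coactivator, averaged 103 ± 33.8 CPM in shIft88 and 69.2 ± 27.9 CPM in controls.

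Proteins that bind snoRNAs were positive for 3 and negative for 12 of 15 genes (1 and 14 with library totals alone), with none called and a median of -0.12. Nhp2l1, which nucleates box C/D particles, was at 170, 104 and 130 CPM in shIft88 and at 98.8, 89.3 and 94.8 CPM in controls, higher without overlap (0.51, SE 0.25, edgeR adjusted p = 0.9995). No other of the 15 genes had groups without overlap, and 4.70% of all tested genes were higher in this way. Nop58, a core box C/D protein, averaged 132 ± 45.4 CPM in shIft88 and 181 ± 63.0 CPM in controls, and Nhp2, a core H/ACA protein, 58.2 ± 16.4 and 75.0 ± 44.9 CPM. Factors of nonsense-mediated decay were positive for 5 and negative for 12 of 17 tested genes (2 and 15 with library totals alone), with none called and a median of -0.08. Upf3a averaged 35.6 ± 10.2 CPM in shIft88 and 26.1 ± 4.90 CPM in controls, Upf2 45.3 ± 9.28 and 58.0 ± 16.7 CPM, and Magoh, an exon junction protein, 82.4 ± 30.9 and 60.9 ± 13.2 CPM.

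The genes most like each member over the 6 libraries were the 3 with the highest Pearson r among genes with a mean of at least 10 CPM, given as a description because each is the top of a long search. For 7SK they were Mrpl11 (r = 0.992), Asb8 (0.991) and Samm50 (0.989). Malat1 was closest to Tgfb2 (0.976), Cobll1 (0.974) and C1qtnf6 (0.974), and Neat1 to Npr2 (0.993), Ttyh2 (0.985) and Plxna4 (0.974). Gas5 was closest to Nt5c3 (0.986), Taf1d (0.982) and Npm3 (0.976), and Snhg1 to Fars2 (0.998), BC031781 (0.998) and Ccdc86 (0.997). Snhg3 was closest to Rbfa (0.993), Lmtk2 (0.972) and Wipi2 (0.970), and Snhg12 to Rpl17-ps3 (0.985), Eri1 (0.974) and Srp19 (0.974). With library totals alone, 1 of the 3 names recurred for each of 7SK, Gas5, Snhg3 and Snhg12, and none for Malat1, Neat1 and Snhg1.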

How the data were processed

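Gene expression was measured by RNA-seq in 6 libraries (3 shIft88, 3 control), grouped by the sample descriptions. Per the labels' protocols, the authors made libraries from total RNA with a TruSeq Stranded kit. BWA and mm9 are named per the submitters' processing notes. The counter, annotation, strand setting and treatment of multiply mapping reads are named by no source used here. What the authors deposited are raw counts per gene in 34591 rows, with 5 closing tallies left out of library sizes (18.8% to 39.5% of tallied reads had no feature).

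Testing used edgeR 4.0.16 under R 4.3.3 (filterByExpr, TMM, two-sided quasi-likelihood test, robust=TRUE, Benjamini-Hochberg adjustment at 0.05 over 16768 genes), checked on simulated data. CPM are computed from TMM-scaled sizes; likeness used log2(CPM + 0.5). DESeq2 1.42.0, limma 3.58.1 (voom) and further alternatives are given in the closing section. Ratios used exact permutation tests (scipy 1.17.1). RefSeq gave promoter sequences and the background of promoter runs. GENCODE M21 gave transcript sequences, the motif background and the lengths used for levels per kilobase.

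The members and lists were chosen with earlier results of these data known. Every member present is named, with up to 3 genes per list (smallest p, or highest share for noncoding and snoRNA lists), the 3 most like genes and the 5 most abundant rows; other names were chosen after their values were seen.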

Additional observations from a re-analysis of the deposited data

How the results depend on the processing

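No member passed the adjusted threshold of 0.05 under any of 112 alternatives, of which 104 kept the direction. The exceptions under library totals alone were Gas5 (-0.083), Snhg1 (-0.085), Snhg3 (-0.044) and Snhg12 (-0.28, all log2), and among the other named genes Taf1d (-0.19), Aff1 (-0.092) and Nudt21 (-0.082). A term for the 3 libraries with over 100 detected olfactory receptor genes turned RNase_MRP to 0.036, H19 to -0.43, Snora16a to 0.079 and Nhp2 to 0.041, and limma-voom turned Snhg11 to 0.12 and H19 to -0.63. Leaving out each library in turn gave log2 ranges of -0.016 to 0.62 for Gas5, -0.11 to 0.54 for Snhg1, -0.11 to 0.24 for Snhg12, -0.27 to 0.11 for RNase_MRP, -0.17 to 0.48 for Taf1d, -0.091 to 0.74 for Snhg5, -2.04 to 0.41 for Snhg11, -0.26 to 0.11 for Tug1, -3.33 to 2.54 for H19, -0.49 to 0.092 for Snora16a and -0.69 to 0.21 for Nhp2. The difference in summed share, 0.680 percentage points, ran between -0.258 without shIft88 1 and 1.60 without shIft88 3, and was 1.46 without the 15 gene-model rows. DESeq2 called 45 genes higher and 13 lower, and edgeR with no filter 5 and 1; the other alternatives called none, and the cause was not tested. Leaving out the 15 rows and counting RNase_MRP as a member were chosen after seeing the data. No paired analysis was possible because the labels give no replicate numbers. Among the members, depth limits Snhg3 most; the rows Snora16a and Snora73a had fewer counts still.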
